A study of Mus musculus with 5 samples.

Results

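The 10 genes described here cover the synthesis of serine and the transcriptional response that ATF4 drives when amino acids run short. They were taken by symbol from the deposited tables of 24421 genes, and each was found in both tables. The 3 serine synthesis genes were Phgdh, Psat1, and Psph, and the 7 genes of the ATF4 response were Atf4, Asns, Ddit3, Trib3, Chac1, Sesn2, and Ddit4. All 10 had an FPKM (fragments scaled by transcript length and by the mapped fragments of the library) above 1 in every library, so no filter on low values removed any of them.

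RNA-seq was performed on 5 mouse libraries, 1 per group: MEFs (mouse embryonic fibroblasts), iPSCs (induced pluripotent stem cells), untreated V6.5 cells, which are mouse embryonic stem cells, V6.5 cells expressing a nontargeting control shRNA (NTC), and V6.5 cells expressing an shRNA against Gldc (shGldc). Gldc encodes glycine dehydrogenase, the enzyme of the glycine cleavage system that releases the carboxyl carbon of glycine. The labels give no shRNA for the MEFs, the iPSCs, and the untreated V6.5 cells. By the labels' growth protocol, the iPSCs and the V6.5 cells grew without feeders on gelatin with serum replacement, little serum, pyruvate, β-mercaptoethanol, and leukaemia inhibitory factor, whereas the MEFs grew in serum without these additions, and both media held nonessential amino acids. The study's methods also describe mouse ES and iPS culture on feeders with serum in place of serum replacement, and do not say which culture each library came from. Of the cells sequenced, the methods name the mouse strain of the MEFs only. Cell type, medium, and any difference in strain therefore cannot be told apart in any comparison with MEFs. The values of the knockdown library are headed sh3, while the study's shRNA list names sh1 and sh2 for mouse Gldc, so which shRNA was sequenced is not known here. Whether the shRNA cells were 1 clone is not given in the sources used here. With 1 library per group there was no replicate error, and no p-value is given.

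Serine is made from a glycolytic intermediate, 3-phosphoglycerate, in consecutive steps. Phgdh oxidises it, Psat1 transfers an amino group to the product, and Psph removes the phosphate. ATF4 is a transcription factor whose protein is made when kinases such as GCN2 and PERK phosphorylate the translation factor eIF2, and its known targets include the serine synthesis genes, amino acid transporters, tRNA synthetases, and stress genes such as Ddit3 and Trib3. Because ATF4 is controlled largely at translation, an Atf4 transcript level is not a measure of ATF4 protein. Sesn2 and Ddit4, which restrain mTORC1, are also known targets of p53.

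ATF4 binds, with C/EBP partners, to composite elements whose core resembles TGATGNAA. These letters were searched on both strands in the promoter windows of RefSeq (GRCm38.p6), each from 250 bases before to 50 bases after an annotated start. All 10 genes had a window, and 3 of them, Asns, Trib3, and Chac1, held a match, against 4.51% of all 27025 genes with a window and 3.97% of all 32851 windows. None of the 3 serine synthesis genes did. The 3 windows are printed because their genes are the ones with a match, and capitals mark it. The Asns window is chr6:7693160-7693459 on the minus strand, the Trib3 window is chr2:152344011-152344310 on the minus strand, and the Chac1 window is chr2:119350992-119351291 on the plus strand, each read 5′ to 3′ along the gene.
Asns: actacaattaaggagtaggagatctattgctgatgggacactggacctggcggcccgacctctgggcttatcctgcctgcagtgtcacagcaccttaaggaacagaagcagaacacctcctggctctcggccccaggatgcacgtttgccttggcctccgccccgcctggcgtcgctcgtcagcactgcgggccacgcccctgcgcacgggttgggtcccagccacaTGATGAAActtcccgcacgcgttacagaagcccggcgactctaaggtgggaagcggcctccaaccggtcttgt
Trib3: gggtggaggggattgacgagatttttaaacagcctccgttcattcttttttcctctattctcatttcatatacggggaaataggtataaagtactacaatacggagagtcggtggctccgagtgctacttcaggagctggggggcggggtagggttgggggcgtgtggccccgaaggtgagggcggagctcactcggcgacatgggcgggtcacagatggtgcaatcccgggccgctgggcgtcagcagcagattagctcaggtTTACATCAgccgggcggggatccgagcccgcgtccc
Chac1: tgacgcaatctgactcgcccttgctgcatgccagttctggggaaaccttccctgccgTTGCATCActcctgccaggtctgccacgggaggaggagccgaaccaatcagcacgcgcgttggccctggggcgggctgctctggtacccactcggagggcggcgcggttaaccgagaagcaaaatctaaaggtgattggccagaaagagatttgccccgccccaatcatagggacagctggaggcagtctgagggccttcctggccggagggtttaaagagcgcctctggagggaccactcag
The Asns match, TGATGAAA, began 23 bases before the start, the Chac1 match, TTGCATCA on the opposite strand, began 193 bases before it, and the Trib3 match, TTACATCA on the opposite strand, began 14 bases after it. Among other genes that had a window, a match was found in 9 of 24 other ATF4 targets, in 5 of 7 tRNA synthetases known to be ATF4 targets, and in 0 of 5 other cytosolic tRNA synthetases. These lists hold 31, 12, and 8 genes, and the rest had no window under their symbol. A match is a description of letters and not a bound site, and genes without one in this window may hold elements elsewhere.

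Depth and identity were checked once for all libraries. The steps between low FPKM values put the depth at 22200000 to 28900000 fragments, though for NTC and shGldc a depth lower by a factor of 2 matched a similar number of values. Gldc stood at 74.7 FPKM in NTC and 2.07 in shGldc, so 2.77% of the control level was left in the library labelled as the knockdown. The summed FPKM of 5 pluripotency markers (Pou5f1, Nanog, Sox2, Zfp42, and Dppa5a) was 2.72 in MEFs and 3184 to 5810 in the other libraries. The summed FPKM of 6 fibroblast markers was 0.715% of the MEF value in untreated V6.5 cells and 0.187%, 0.165%, and 0.0596% in iPSCs, NTC, and shGldc, with Dcn at 0 in these 3. Of 6 macrophage markers, C1qa, C1qb, and C1qc were at 52.7, 32.3, and 39.8 FPKM in MEFs and at 0 to 0.20 elsewhere, whereas Cd68 was at 9.04 to 19.9 in all 5 libraries. Csf1r was also at least 2-fold lower in V6.5 cells and iPSCs than in MEFs, whereas Ptprc stayed below 1 FPKM in MEFs. The MEF library thus held transcripts of some macrophage markers but little of Ptprc, and the part of macrophages in the MEF levels below was not tested.

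Levels of the members spanned different ranges. Between the highest and the lowest of the 5 libraries, the FPKM of Phgdh differed 1.93-fold, that of Psat1 2.43-fold, and that of Psph 2.47-fold. Ddit3 varied most, by 36.7-fold, followed by Chac1 at 12.9-fold, Ddit4 at 6.999-fold, and Trib3 at 6.49-fold, whereas Atf4, Asns, and Sesn2 varied 3.20-fold, 3.09-fold, and 2.57-fold. The highest level lay in iPSCs for 7 members and in MEFs for the other 3, Phgdh, Psat1, and Ddit3. The share of all genes that were highest in each library was not computed, and the summed FPKM of all genes was itself largest in iPSCs. Within a gene the 5 levels were ordered, and the 95% counting intervals of neighbours in that order overlapped in 7 of 40 pairs: V6.5 and iPSC for Phgdh and for Psat1, MEF and NTC for Psph, MEF and iPSC for Trib3 and for Chac1, NTC and shGldc for Trib3, and MEF and V6.5 for Ddit4. Overlap does not show that the levels of a pair were alike, and the intervals leave out the spread between cultures. With the depth of all 5 libraries lower by a factor of 2, and not only that of NTC and shGldc, 10 pairs overlapped. In a bulk library, a lower level may come from fewer expressing cells or from less RNA per cell, and these cannot be told apart.

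**Figure D1:**
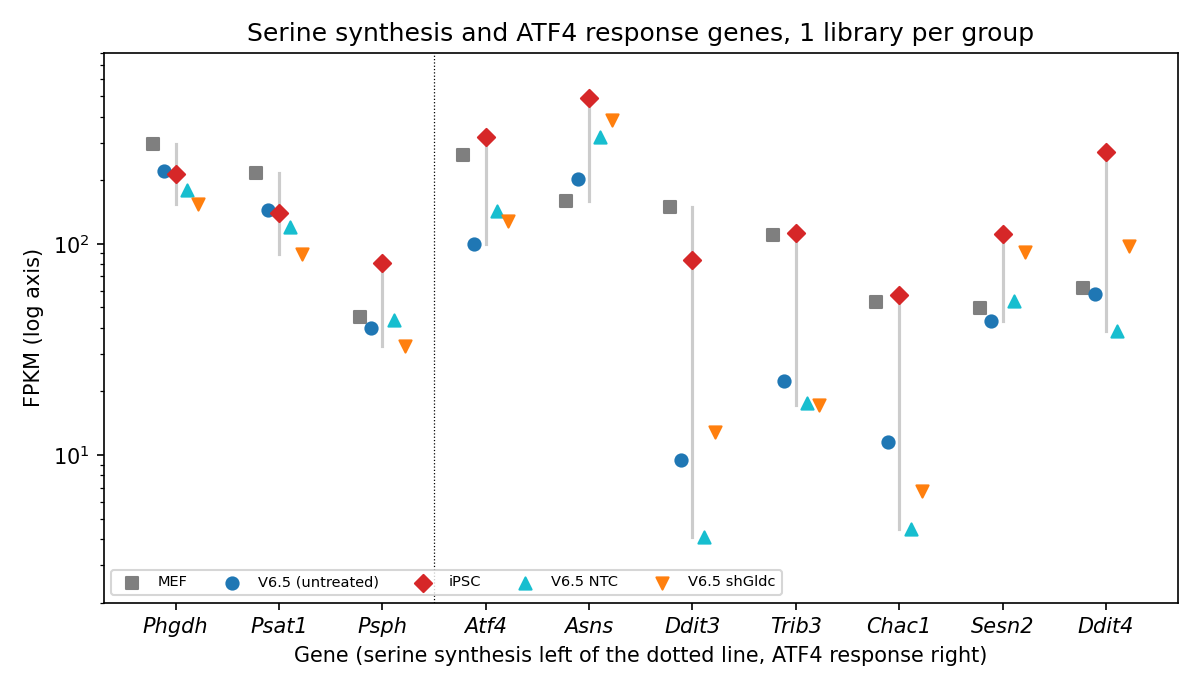
FPKM of the 10 genes (log axis) in the 5 libraries, 1 point per library, with a grey line from the lowest to the highest. Phgdh and Psat1 are highest in MEFs, while Ddit3 ranges from 4.08 in NTC to 149.7 in MEFs.

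Phgdh, the enzyme that commits 3-phosphoglycerate to serine, was at 297.3 FPKM in MEFs, 220.1 in untreated V6.5 cells, 213.1 in iPSCs, 179.8 in NTC, and 154.1 in shGldc. Psat1, the aminotransferase of the pathway, was at 216.4, 143.8, 140.3, 120.3, and 88.9 FPKM in the same order. Both genes were therefore highest in MEFs and lowest in shGldc, and their levels in V6.5 cells and iPSCs lay within 1.03-fold of each other. Psph, the phosphatase of the last step, was at 44.9, 39.9, 81.0, 43.4, and 32.8 FPKM and was highest in iPSCs. Per length, Phgdh exceeded Psph 6.62-fold in MEFs and 2.63-fold in iPSCs, and exceeded Psat1 between 1.37-fold and 1.73-fold in all 5 libraries.

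Phgdh is a minus-strand gene of chromosome 3, at positions 98313170 to 98339990 (mm10, GENCODE M21). Of its 50-nt stretches, 47.8% also occur in transcripts of other genes, mainly the pseudogene Gm7901 with 38.3%, so reads could have been split between copies. Psat1, on chromosome 19 from 15904678 to 15947337, shared 0.7% of its stretches. Psph, on chromosome 5 from 129765558 to 129787449, overlapped exons of Cct6a over 10.4% of its exonic length. Cct6a was at 105.5 FPKM in MEFs, 243.0 in untreated V6.5 cells, 171.9 in iPSCs, 212.7 in NTC, and 176.1 in shGldc. It was thus lower in iPSCs than in V6.5 cells, unlike Psph, and lower in shGldc than in NTC, like Psph, and its part in the Psph levels was not tested.

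To compare pluripotent cells with somatic cells, log2 ratios of FPKM + 0.1 were taken over genes that reached 1 FPKM in either library, and a gene was counted as higher or lower when it was at least 2-fold apart. Against MEFs, 0 of the 10 members were higher in untreated V6.5 cells, where 30.3% of 12840 genes were, and 4 were lower, where 23.3% were. The 4 lower members all belonged to the ATF4 response: Ddit3, Trib3, Chac1, and Atf4. In iPSCs against MEFs, 3 members were higher (Ddit4, Sesn2, and Asns), where 31.5% of 13032 genes were, and 0 were lower, where 21.3% were. None of the 3 serine synthesis genes was 2-fold apart from MEFs in either pluripotent line. The median log2 ratio of all genes was 0.25 in V6.5 cells and 0.31 in iPSCs, so ratios near 0 lie slightly below most genes. With each library rescaled to the same FPKM sum, Sesn2 in iPSCs over MEFs was short of 2-fold, at 0.86, and Ddit3 was then past it on the lower side, at -1.14.

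Atf4, at 80255184 to 80257541 of chromosome 15, was at 261.9 FPKM in MEFs, 99.8 in untreated V6.5 cells, and 319.6 in iPSCs. The V6.5 level was lower than the other levels by more than the counting error, whose 95% interval ran from 97.0 to 102.6 FPKM. The log2 ratio to MEFs was -1.39 in V6.5 cells and 0.29 in iPSCs, and the latter turned to -0.02 with rescaling.

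Ddit3, which encodes CHOP, a transcription factor induced by ATF4 and tied to cell death under prolonged stress, showed the widest gap. The gene lies at 127290774 to 127296288 of chromosome 10, and its FPKM was 149.7 in MEFs, 9.48 in untreated V6.5 cells, and 83.9 in iPSCs, a 15.8-fold difference between MEFs and V6.5 cells. The fibroblast marker share of 0.715% times the MEF level is 1.07 FPKM, and the part of fibroblast RNA in the V6.5 level was not tested. Ddit3 exons overlap those of Mars and Gm4189 over 4.7% of their length, and Mars was at 60.3, 130.5, and 173.9 FPKM in the same libraries. Its part in the Ddit3 levels was not tested.

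Trib3, a pseudokinase that binds ATF4 and CHOP and limits their activity (chromosome 2, 152337422 to 152344032), was at 109.5 FPKM in MEFs, 22.5 in untreated V6.5 cells, and 112.1 in iPSCs. Chac1, an enzyme that breaks down glutathione (chromosome 2, 119351229 to 119354381), was at 52.999, 11.5, and 57.3 FPKM. For both genes the MEF and iPSC levels lay within 1.08-fold of each other, in an order that turned with rescaling, and the V6.5 level was more than 4-fold lower than either. Their log2 ratios in V6.5 cells over MEFs were -2.28 and -2.19.

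Asns, which makes asparagine from aspartate (chromosome 6, 7675169 to 7693254), was at 158.5 FPKM in MEFs, 202.7 in untreated V6.5 cells, and 490.6 in iPSCs, and was the most abundant of the 10 in iPSCs, NTC, and shGldc. Sesn2, a leucine sensor upstream of mTORC1 (chromosome 4, 132492032 to 132510501), was at 49.5, 43.1, and 110.9 FPKM. Ddit4, also known as REDD1, an mTORC1 inhibitor (chromosome 10, 59949669 to 59951834), was at 61.7, 58.1, and 270.5 FPKM. For Sesn2 and Ddit4 the MEF and V6.5 levels were close, at 1.15-fold and 1.06-fold, and the iPSC library stood above both, with log2 ratios to MEFs of 1.16 and 2.13. Atf4, Asns, Trib3, Chac1, Sesn2, and Ddit4 overlapped no exon of another annotated gene and shared 0.0% of their 50-nt stretches with one.

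**Figure D2:**
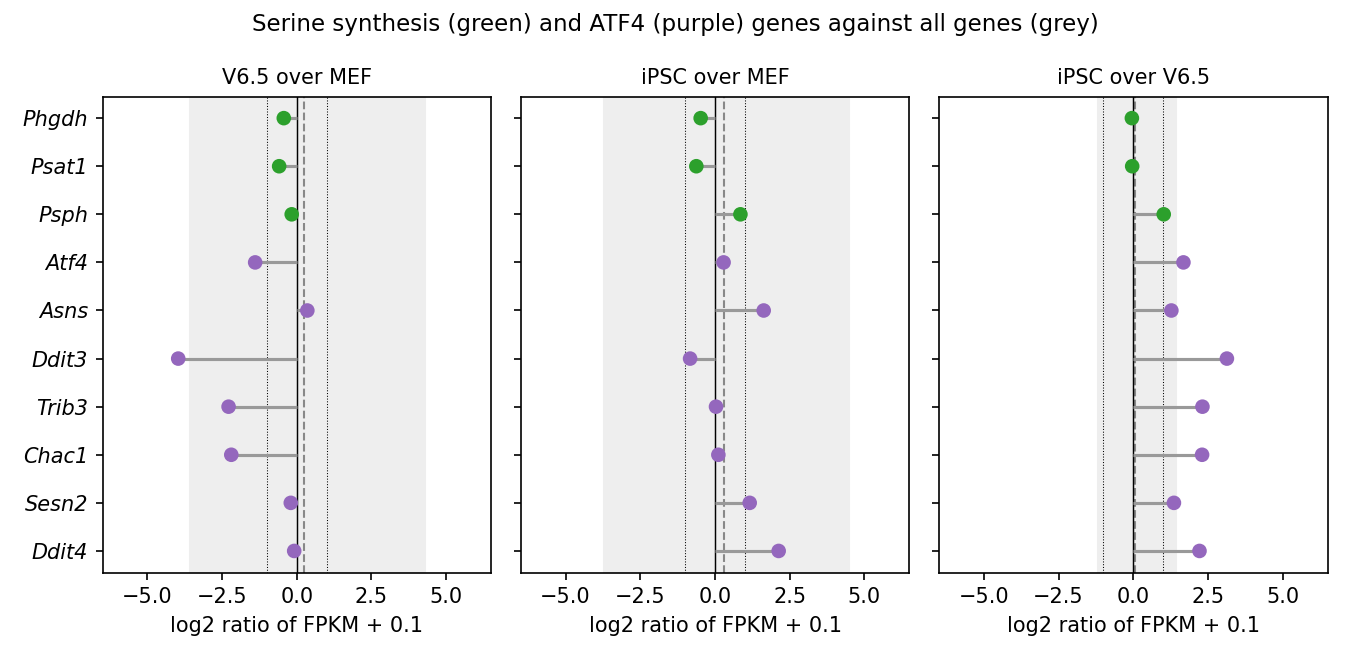
Log2 ratios of FPKM + 0.1 for the 10 genes in V6.5 over MEF, iPSC over MEF, and iPSC over V6.5. Grey bands span the 5th to 95th percentiles of all genes that reached 1 FPKM in either library, the dashed line is their median, and dotted lines mark 2-fold. In iPSC over V6.5, the 7 ATF4 genes (purple) lie between 1.28 and 3.13, whereas Phgdh and Psat1 (green) lie at -0.05 and -0.04.

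The pluripotent lines, to which the labels give the same medium, were then compared directly. In iPSCs over untreated V6.5 cells, 8 of 10 members were at least 2-fold higher, where 10.1% of 12323 genes were, and 0 were lower, where 7.44% were. The 8 comprised all 7 ATF4 response members and Psph, which at a log2 ratio of 1.02 was just past the 2-fold mark and at 0.95 with rescaling was not. The median log2 ratio was 1.52 for the 10 members and 0.04 for all genes. Ddit3 had a log2 ratio of 3.13 and ranked 67 of 12323 from the highest, Trib3 (2.31) ranked 183, Chac1 (2.30) ranked 185, and Ddit4 (2.22) ranked 206. Atf4 itself followed at 1.68, ahead of Sesn2 at 1.36 and Asns at 1.28. Since each line was 1 library, a difference between lines and a difference between cultures, medium and feeders included, cannot be told apart.

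With NTC as the embryonic stem cell control in place of untreated V6.5 cells, an alternative chosen after seeing the data, 6 members were at least 2-fold higher in iPSCs, where 16.3% of 12283 genes were. Psph and Asns were then no longer past 2-fold, with log2 ratios of 0.90 and 0.61, while Ddit3 reached 4.33 and Chac1 3.66. This comparison crosses the separately made tables. Taking the fibroblast share off the V6.5 values, also chosen after seeing the data, left the count at 8. This step can only raise ratios over V6.5 cells, so it could not have lowered the count.

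A list of 31 other ATF4 targets was then read in the same libraries. In iPSCs over untreated V6.5 cells, 16 of the 28 that passed the filter were at least 2-fold higher, where 10.1% of all genes were, and 1 was lower, where 7.44% were, with a median log2 ratio of 1.08 for the list and 0.04 for all genes. The lower gene was Ero1l, an oxidase of the endoplasmic reticulum, at -1.08. Fgf21, a secreted hormone, had the highest ratio, but its V6.5 level of 0.0643 FPKM came from about 2 fragments, against 1.76 FPKM and about 37 fragments in iPSCs. Next were Cth, which makes cysteine from cystathionine, at 9.20 and 95.6 FPKM, Stc2, a secreted glycoprotein, at 1.64 and 14.1 FPKM, and Atf5, a related transcription factor, at 7.35 and 60.5 FPKM, these 3 named after their values were seen. Against MEFs, 0 of 31 were higher and 15 were lower in V6.5 cells, where 30.3% and 23.3% of all genes were. In iPSCs over MEFs 2 were higher (Cth and Gdf15), where 31.5% of all genes were, and 8, or 25.8%, were lower, which is near the 21.3% of all genes.

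The tRNA synthetases charge tRNAs for protein synthesis, and some are known ATF4 targets. Of 12 such targets, 0 were 2-fold apart between iPSCs and V6.5 cells and 8 were above 0, with log2 ratios from -0.06 for Aars to 0.93 for Nars and a median of 0.27. In this comparison 10.1% of all genes were 2-fold higher and 7.44% were lower, and the lists that follow are to be read beside these shares. Of 8 other cytosolic synthetases, 0 were higher and 1 (Kars, -1.09) was lower, with a median of -0.27 and Farsb highest at 0.03. Upstream of ATF4, 1 of 16 genes of eIF2 kinases and eIF2 control was 2-fold higher, Ppp1r15a, which encodes the stress-induced eIF2 phosphatase subunit GADD34 and is itself an ATF4 target. That is 6.25% of the list, and Eif2s2, a subunit of eIF2, was lowest at -0.84. Among 20 ER chaperones and genes of other arms of the unfolded protein response, 1 was higher (Dnajc3, 1.24) and 1 was lower (Calr, -1.01), with a median of -0.03, so neither share exceeded that of all genes. Of 16 genes of serine uptake and use, 4, or 25%, were higher, and Sfxn1 was lowest at -0.76. The 4 were Srr, which makes D-serine, the transporters Slc1a4 and Slc1a5, and Serinc2. Exons of Srr, the highest at 1.46, overlap those of Tsr1 and Smg6 over 30.0% of their length. Slc1a4 and Slc1a5 were also on the list of ATF4 targets. Of 20 genes of amino acid sensing upstream of mTORC1, 1 was higher (Ddit4l, 1.39) and 1 was lower (Gatsl3, -1.71), and of 8 paralogs of the members, Atf5, Chac2, and Ddit4l were higher and Trib2 was lower at -1.30.

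Of 10 targets of p53, 7 were at least 2-fold higher in iPSCs than in untreated V6.5 cells, where 10.1% of all genes were, with a median log2 ratio of 1.38, from -0.89 for Sesn1 to 1.71 for Trp53inp1. Of 6 NRF2 targets, which answer oxidative stress, 0 were 2-fold apart, from -0.01 for Nqo1 to 0.81 for Gclc. Of 7 HIF1 targets, which answer low oxygen, 1 (Vegfa, also an ATF4 target, 1.03) was higher and 2 (Adm, -3.02, and Egln3, -1.36), or 28.6%, were lower, where 7.44% of all genes were. The part of p53 in the levels of Sesn2 and Ddit4 was not tested.

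To examine the knockdown of Gldc, shGldc was compared with NTC within their own table. Here 2 of 10 members, Ddit3 and Ddit4, were at least 2-fold higher, where 8.97% of 11969 genes were, and 0 were lower, where 7.68% were. Of the 10 log2 ratios, 5 were above 0 and 5 were below, against a median of 0.04 for all genes. The 3 serine synthesis genes were all among the latter 5, with log2 ratios of -0.22 for Phgdh, -0.44 for Psat1, and -0.40 for Psph, none of them 2-fold. Atf4 differed little, at 143.2 FPKM in NTC and 128.0 in shGldc, and Trib3 even less, at 17.6 and 17.3 FPKM.

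Ddit3 was at 4.08 FPKM in NTC and 12.9 in shGldc, a 3.16-fold difference and rank 506 of 11969. The values rested on about 114 and 358 fragments, and the 95% counting intervals ran from 3.37 to 4.90 and from 11.6 to 14.3 FPKM. At the lower depth by a factor of 2 they ran from 3.09 to 5.28 and from 11.1 to 14.9 FPKM, so they did not overlap in either case. Ddit4 was at 38.7 FPKM in NTC and 98.0 in shGldc, a 2.54-fold difference and rank 676. Sesn2 was 1.71-fold higher (53.5 and 91.4 FPKM), Chac1 1.53-fold (4.44 and 6.78 FPKM), and Asns 1.20-fold (321.3 and 385.1 FPKM), all short of 2-fold.

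Untreated V6.5 cells, from the other table, put these differences in context. NTC over V6.5 had 0 members 2-fold higher, where 4.99% of genes were, and 2 lower, Ddit3 (-1.20) and Chac1 (-1.36), where 10.3% of 12048 genes were lower. As a result, Ddit3 in shGldc was only 1.36-fold above its level in untreated cells (9.48 FPKM), and Chac1 was below its level there (11.5 FPKM), at a log2 ratio of -0.76. In shGldc over untreated V6.5 cells, 1 member, Sesn2 (1.08), was at least 2-fold higher, where 9.89% of 12237 genes were, and Asns (0.93) and Ddit4 (0.75) were short of it. Ddit4, Sesn2, Asns, and Ddit3 were above 0 in both ratios of the shGldc library, and Phgdh, Psat1, Psph, and Trib3 were below 0 in both. Both ratios share the shGldc library, and the ratios over untreated cells also hold any difference between the tables.

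**Figure D3:**
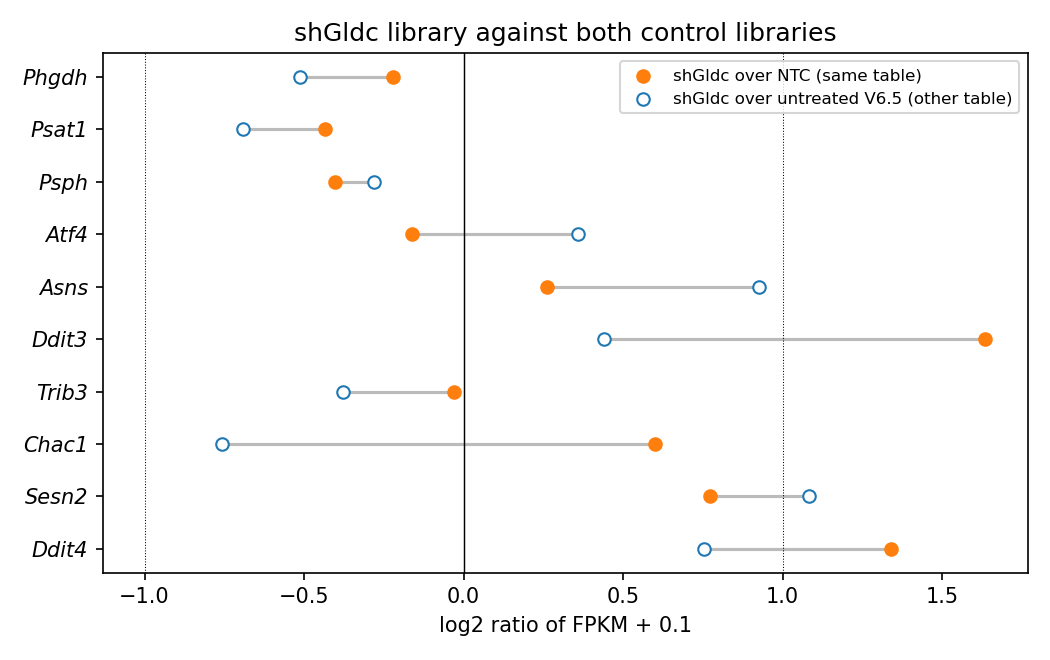
Log2 ratio of FPKM + 0.1 of the shGldc library over NTC (filled, same table) and over untreated V6.5 cells (open, other table) for the 10 genes, with dotted lines at 2-fold. Ddit3 and Ddit4 pass 2-fold over NTC but not over untreated cells, and Atf4 and Chac1 lie on opposite sides of 0.

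Of the 27 other ATF4 targets that passed the filter in shGldc over NTC, 4 were at least 2-fold higher and 4 lower, 14.8% each, where 8.97% and 7.68% of all genes were, with a median log2 ratio of -0.26. The higher genes were transcription factors and a stress hormone: Atf3 (3.94), Atf5 (1.41), Gdf15 (1.15), and Jdp2 (1.12). The lower genes were the transporters of cationic amino acids Slc7a3 (-1.83) and Slc7a1 (-1.65), the transporter of large neutral amino acids Slc7a5 (-1.09), and Cth (-1.003). Atf3 was at 0.180 FPKM in NTC, about 10 fragments, and at 4.19 in shGldc, with 3.08 in untreated V6.5 cells, and the log2 ratio of shGldc over untreated cells was 0.43. That ratio was 1.71 for Atf5, still past 2-fold, 0.28 for Gdf15, and -1.11 for Jdp2, which was 2-fold lower than in untreated cells. Of the 4 lower genes, Slc7a3, Slc7a1, and Cth were in turn at least 2-fold higher in NTC than in untreated cells, with log2 ratios of 1.04, 1.01, and 1.06. None of the 4 was 2-fold lower in shGldc than in untreated cells, with Slc7a3 at -0.78, Slc7a1 at -0.64, Slc7a5 at -0.68, and Cth at 0.06.

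**Figure D4:**
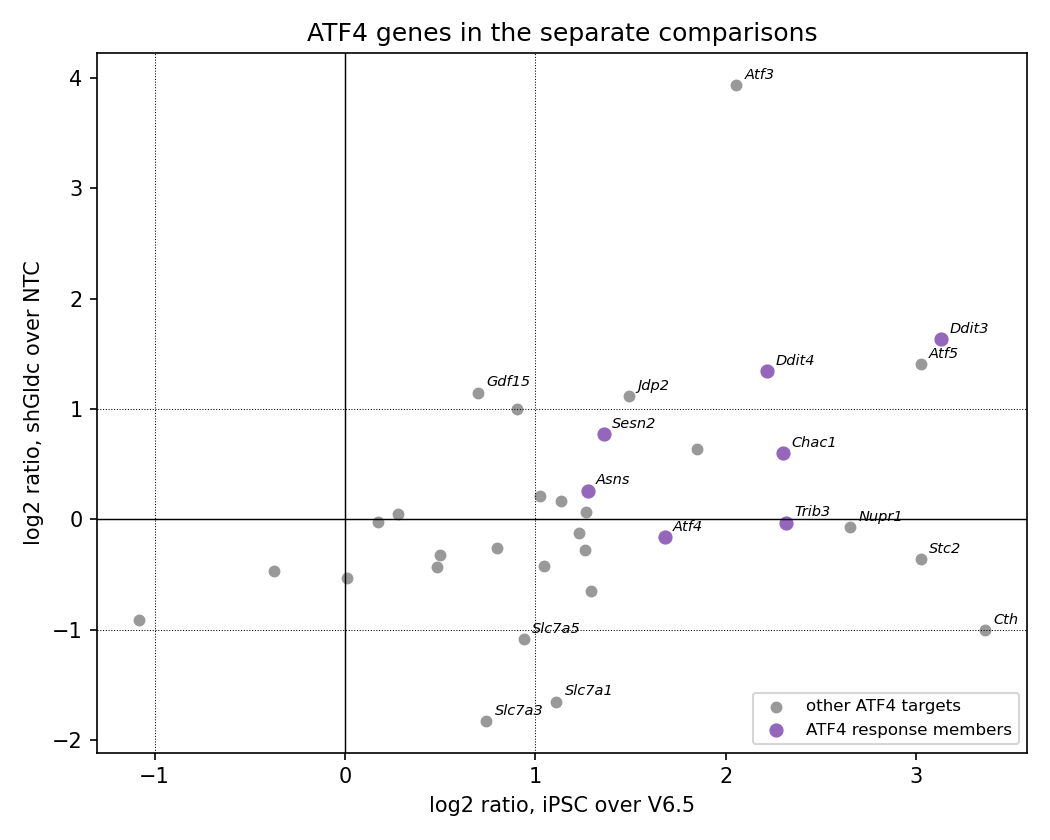
Log2 ratios of ATF4 response members (purple) and 27 other ATF4 targets (grey) in iPSC over V6.5 (horizontal) and shGldc over NTC (vertical), which share no library, with dotted lines at 2-fold. Of the other targets, 25 lie above 0 on the horizontal axis, and 17 lie below 0 on the vertical axis.

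In shGldc over NTC, 0 of 12 tRNA synthetases under ATF4 (median -0.20, 10 below 0), 0 of 8 other synthetases (median -0.16, all 8 below 0), 0 of 16 genes of eIF2 control (median -0.02), and 0 of 20 ER chaperones and related genes (median 0.06) were 2-fold apart, where 8.97% of all genes were higher and 7.68% were lower. The ratios ran from -0.48 for Aars to 0.09 for Sars, from -0.30 for Farsb to -0.01 for Dars, from -0.95 for Eif2ak1 to 0.90 for Impact, and from -0.43 for Pdia4 to 0.34 for Sel1l in these 4 lists. Of 16 genes of serine uptake and use, with a median of -0.26, Srr was higher at 2.07, with 0.75 and 3.49 FPKM, though 30.0% of its exonic length overlaps Tsr1 and Smg6, and Sfxn1, the mitochondrial serine carrier, was lowest at -0.99. Of 19 genes of amino acid sensing upstream of mTORC1, Ddit4l (1.54), a paralog of Ddit4, and the Rag GTPase gene Rragd (1.48) were higher, and Gatsl2 (-1.14) and the Rag GTPase gene Rragb (-1.12) were lower, shares near those of all genes. Of 8 paralogs of the members, 7 were above 0, with a median of 0.55, Ddit4l and Atf5, or 25% of the list, were 2-fold higher, and none was lower, with Asnsd1 lowest at -0.27.

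Of 10 p53 targets, 4 were at least 2-fold higher in shGldc over NTC, where 8.97% of all genes were, and 6 were not 2-fold apart. All 10 had a log2 ratio above 0, with a median of 0.97 and Zmat3 lowest at 0.47, and the 4 were Phlda3 (1.69), Btg2 (1.23), Ccng1 (1.14), and Bbc3, which encodes the cell death protein PUMA (1.04). In shGldc over untreated V6.5 cells all 10 were above 0 as well, with a median of 0.78, and 2 were at least 2-fold higher, Phlda3 and Cdkn1a, where 9.89% of all genes were. Beside these, Ddit4 and Sesn2 had log2 ratios of 1.34 and 0.77 in shGldc over NTC and of 0.75 and 1.08 over untreated V6.5 cells, so each was past 2-fold over only 1 of the controls. The part of p53 was not tested. Of 6 HIF1 targets, 0 were 2-fold apart in shGldc over NTC, from -0.86 for Pdk1 to 0.21 for Vegfa. In NTC over untreated V6.5 cells 5 of 7 were lower (Adm, Bnip3, Ndrg1, Egln3, and Vegfa), where 10.3% of all genes were, with a median of -1.09, beside a Ddit4 ratio of -0.59. The HIF1 median was also below 0 in shGldc over untreated V6.5 cells (-1.46) and in iPSCs over V6.5 cells (-0.93), beside Ddit4 ratios of 0.75 and 2.22. The part of HIF1 in the Ddit4 levels was not tested. Of 6 NRF2 targets, Hmox1, which degrades heme, was higher in shGldc than in NTC at 1.06, and Gclc was lowest at -0.16.

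**Figure D5:**
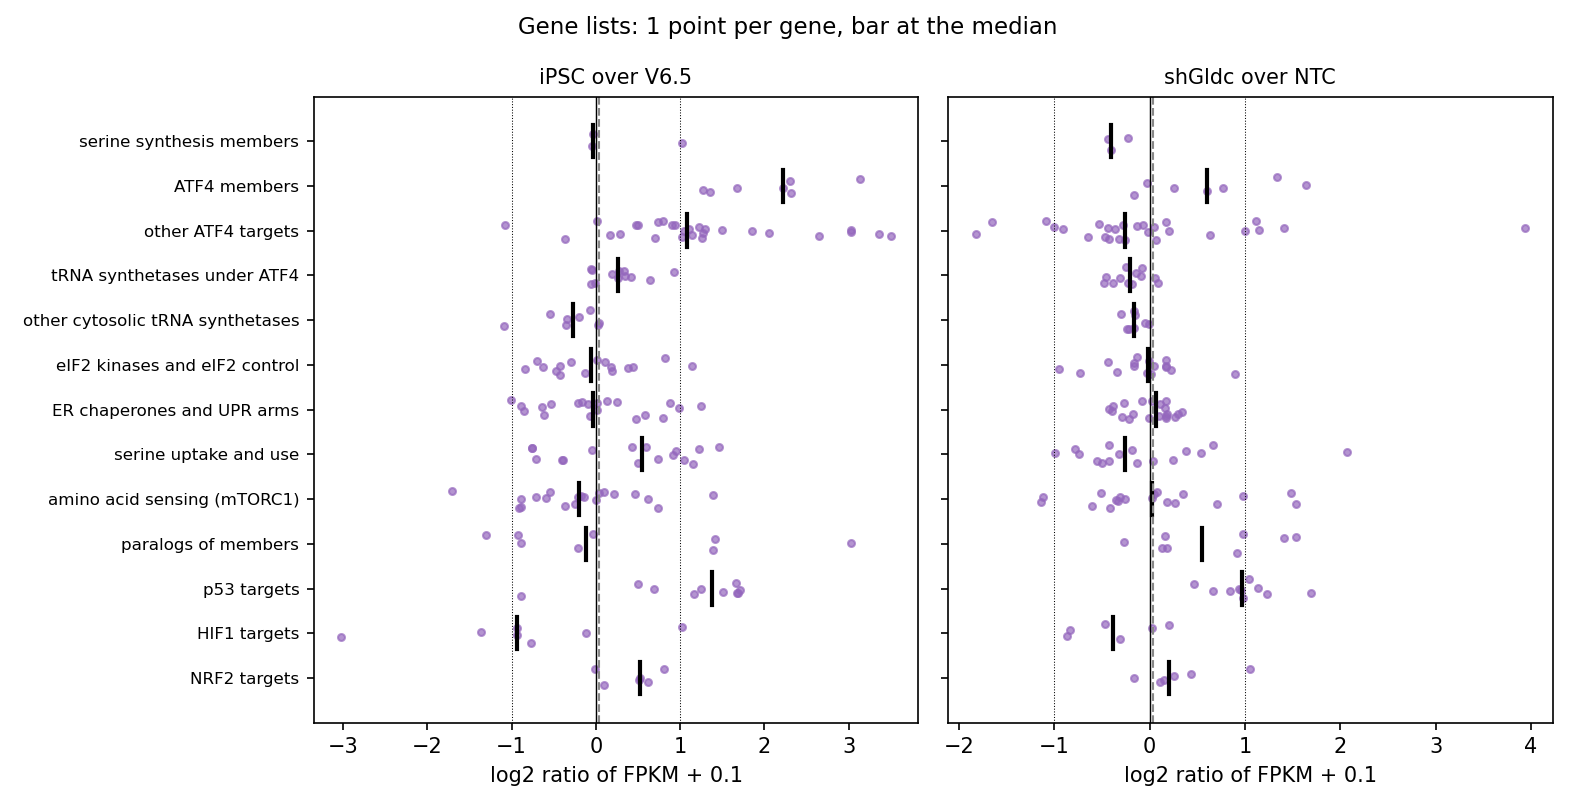
Log2 ratios of FPKM + 0.1 for each gene list in iPSC over V6.5 (left) and shGldc over NTC (right), 1 point per gene that reached 1 FPKM in either library and a black bar at the list median. The dashed line is the median of all genes and dotted lines mark 2-fold. ATF4 members, other ATF4 targets, and p53 targets have medians above 1 on the left. On the right, the medians are 0.60 for ATF4 members, -0.26 for other ATF4 targets, and 0.97 for p53 targets.

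The genes whose levels were most like those of a member were sought among 9878 genes that reached 5 FPKM in any library, by the Euclidean distance of mean-centred log2(FPKM + 0.1) over the 5 libraries. For Phgdh these were Ccdc90b (distance 0.09), Bzw1 (0.10), and D15Ertd621e (0.11). For Asns they were Ccdc115 (0.16), Hexim1 (0.22), and Caskin2 (0.23), and for Trib3 they were Serpine2 (0.41), Rnf128 (0.47), and Tram1l1 (0.59). With 5 libraries and 9878 genes, some genes lie close to any pattern, and the list is a description only.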

How the data were processed

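Per the labels and the paper's methods, total RNA was extracted with TRIzol, libraries were made with a NEBNext Ultra kit, and reads were mapped to mm10 with TopHat2 2.1.0 and assembled with StringTie 1.3.4d, and gene values were computed with Ballgown; SAMtools 1.7 and mm9 are also named, without a role. The authors deposited FPKM values of 24421 genes in 2 separately made tables (MEFs, V6.5 cells, and iPSCs; NTC and shGldc). Annotation, strand setting, and filters are not given in the sources used here. FPKM is scaled by length and depth, not by RNA composition, so a few abundant genes can shift all others.

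Log2 ratios used a pseudocount of 0.1, which understates the change of low genes, and genes that reached 1 FPKM in either library. With 1 library per group, at least 2-fold apart served as the mark, without a test. The ratio step was tested on simulated data. Depth came from the steps between low FPKM values of 5723 genes with 1 annotated transcript, and 95% Poisson intervals from it, with each gene's longest transcript, cover counting error only. The 10 genes and the gene lists were chosen with earlier results of these data known, and so support nothing independently. Named were the 10 genes, Gldc, and of each list the highest and lowest gene and, where 6 or fewer, each gene 2-fold apart in a comparison described, though for comparisons with MEFs and untreated V6.5 cells not all of these are printed; others are marked. Alternatives were other pseudocounts, filters, rescaling, and centring, and, added after seeing the data, NTC in place of V6.5 cells and the fibroblast marker share taken off the V6.5 values. Promoter windows and gene models came from RefSeq GRCm38.p6 and GENCODE M21. Scripts ran in Python 3.11.15 with pandas 2.3.3, numpy 2.4.6, matplotlib 3.10.9, and scipy 1.17.1.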

Additional observations from a re-analysis of the deposited data

Results flagged for a closer look

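Against MEFs, 6 of the 10 genes lay on opposite sides of 0 in the pluripotent lines, lower in untreated V6.5 cells and higher in iPSCs, which is what flagged them. The share of all genes with such opposite signs was not computed, so whether the count is unusual is not known here. The difference between the log2 ratios, iPSC minus V6.5, was 2.31 for Trib3, 2.30 for Chac1, 2.22 for Ddit4, 1.68 for Atf4, 1.36 for Sesn2, and 1.02 for Psph. With 1 library per line the difference was not tested, and since both ratios share the MEF library it equals the ratio of iPSCs over V6.5 cells given above. The opposite signs depended on scaling for Atf4, Trib3, and Chac1, whose iPSC over MEF ratios of 0.29, 0.03, and 0.11 became -0.03, -0.28, and -0.20 when centred on the median of all genes. Those of Psph, Sesn2, and Ddit4 remained above 0 in iPSCs and below 0 in V6.5 cells under each pseudocount, rescaling, and centring.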

How the results depend on the processing

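No paired analysis was possible because each group had 1 library, so there was also no replicate to leave out. Under other pseudocounts, rescaling, and centring, 240 of 240 log2 ratios of single members moved by less than 0.59, the robust SD of the NTC over V6.5 ratio, and none turned from a 2-fold difference to the other direction. Rescaling and centring shift all genes of a comparison by nearly the same amount. The largest shifts, in iPSCs over MEFs, were -0.30 by rescaling and the median of 0.31 taken off by centring. These settings therefore could not reach 0.59, and pseudocounts up to 1 are small beside most member levels. Members at least 2-fold lower in iPSCs over MEFs numbered 0, but 1 (Ddit3) with rescaling or centring, and members higher in iPSCs over V6.5 cells numbered 7 instead of 8 with either. With NTC in place of V6.5 cells, 3 member ratios moved by more, those of Asns, Ddit3, and Chac1. Counts over all genes moved by more than 1.5 times mainly with the filter and the larger pseudocount. By construction, the filter adds or removes low genes, and the larger pseudocount shrinks their ratios. In iPSCs over V6.5 cells 1241 genes were higher and 917 lower, against 753 and 556 with a pseudocount of 1, 2015 and 1461 with no filter, 634 and 502 with a filter at 5 FPKM, and 2003 higher with NTC in place of V6.5 cells. In shGldc over NTC the counts were 1074 and 919, against 654 and 538, 1996 and 1842, and 475 and 322 for the same 3 settings. In NTC over V6.5 cells they were 601 and 1235, against 342 and 713, 1104 and 2466, and 279 and 511. In shGldc over V6.5 cells they were 1210 and 1696, against 1870 and 2969 with no filter and 684 and 807 with the filter at 5 FPKM. In iPSCs over MEFs 4104 genes were higher, against 2694 with it. That filter also moved the medians of the genes of amino acid sensing in V6.5 cells over MEFs, from 0.47 to 1.07, and of the paralogs in iPSCs over MEFs, from 0.01 to -1.09. Depth limits low genes such as Atf3 and Fgf21, which rest on 0 to 10 fragments in a control library.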
